A study of Mus musculus with 45 samples.

Results

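The antiviral RNA-sensing genes examined here were the RNA sensors Ddx58, Ifih1, Dhx58 and Tlr3, the adaptor Mavs, and the transcription factors Irf3, Irf7, Irf9 and Stat2. They are 9 genes, taken by symbol from the 55335 genes of each of 2 tables of FPKM. The choice was made with earlier results of these data known. FPKM is a normalised expression level that divides the fragments of a gene by its transcript length and by the size of the library. All 9 are present in both tables. Each FPKM table holds 1 experiment on cultured mouse tumour cells of the lines CT26 (colon carcinoma) and Hepa1-6 (liver), in groups of 3 libraries. For the drug experiment, unmodified cells of both lines received DMSO, the solvent control, or a compound labelled only stk for 48 hours. For the knockdown experiment, CT26 lines carried a hairpin against luciferase (shLucif) or 1 of 3 hairpins against Soat1, the gene of a cholesterol-esterifying enzyme, named sh1, sh2 and sh3. Hepa1-6 lines carried shLucif or a scrambled hairpin, and all knockdown lines were collected untreated, 24 hours after seeding. The Hepa1-6 lines with hairpins against Soat1 were not analysed here. The labels give no dose of stk, and they do not say whether a knockdown line is a clone or a pool, or whether the libraries of a group are separate cultures. P-values therefore measure only the spread between these libraries, which may be technical.

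RIG-I (encoded by Ddx58) and MDA5 (Ifih1) are helicases that recognise viral RNA in the cytosol, and LGP2 (Dhx58) is a related helicase without signalling domains that modulates them. TLR3 recognises double-stranded RNA in endosomes. RIG-I and MDA5 signal through the mitochondrial adaptor MAVS to the kinases that activate IRF3 and IRF7, which switch on the genes of type I interferon. Secreted interferon acts back through its receptor and Janus kinases, and STAT2 and IRF9 then act in the complex ISGF3, which binds the interferon-stimulated response element (ISRE) in front of antiviral genes. Several sensors and factors of the pathway are themselves interferon-stimulated, among them Ddx58, Ifih1, Dhx58, Irf7, Irf9 and Stat2, whereas Mavs and Irf3 are usually expressed constitutively.

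The ISRE core was searched as GAAA, any 2 bases and GAAA again, on both strands (TTTC, 2 bases and TTTC where it lies on the other strand), in RefSeq windows of build GRCm38.p6 running from 250 bases before to 50 bases after each gene start. Of the 9 genes 8 had a window (Dhx58 was not matched), and 3 of these 8 held the core. The matches are shown because Ddx58, Ifih1 and Stat2 are among the genes that differed between the CT26 knockdown lines. Irf7, Irf9, Tlr3, Mavs and Irf3 had a window without a match, and Irf7 moved most between those lines. Capitals mark the core, and each stretch is written along the strand of its gene with up to 10 bases on each side.
Ifih1, chr2:62646206-62646233, minus strand: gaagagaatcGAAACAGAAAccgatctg
Ddx58, chr4:40239804-40239833, minus strand: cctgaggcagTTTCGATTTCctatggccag
Stat2, chr10:128270266-128270295, plus strand: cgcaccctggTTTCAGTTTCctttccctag
The core began 32 bases after the start in Ifih1, on the strand of the gene, 2 bases after the start in Ddx58 and 222 bases before the start in Stat2, both on the other strand. These starts are those of the RefSeq windows and can differ from the starts of the gene spans given below. The Stat2 window ended at 128270547, before its listed gene span began (128270559). Of 27025 genes with a window, 1079 (3.993%) held the core, and 10 of 26 antiviral effector genes with a window did. A match describes only these letters in this window.

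Gene spans and neighbours were taken from a GENCODE gene annotation of build GRCm38, the build named for the deposited data. There Ddx58 (ENSMUSG00000040296) spans chr4:40203773-40239828 and Ifih1 (ENSMUSG00000026896) spans chr2:62595798-62646255, both on the minus strand. Dhx58 (ENSMUSG00000017830) lies at chr11:100694884-100704271 and Tlr3 (ENSMUSG00000031639) at chr8:45395665-45411080, also on the minus strand. Mavs (ENSMUSG00000037523) lies at chr2:131234063-131248025 and Irf3 (ENSMUSG00000003184) at chr7:44997648-45002848, on the plus strand. Irf7 (ENSMUSG00000025498) lies at chr7:141262706-141266481 on the minus strand. Irf9 (ENSMUSG00000002325) at chr14:55603571-55610030 and Stat2 (ENSMUSG00000040033) at chr10:128270559-128292849 are on the plus strand. Among these genes 5 overlap a neighbour. Irf9 overlaps Rnf31 on its own strand, while Irf7 overlaps Phrf1, Irf3 overlaps Bcl2l12, Dhx58 overlaps Dhx58os and Tlr3 overlaps Gm45542 on the other strand. Over both tables Phrf1 ranged from 3.92 to 10.1 FPKM, Rnf31 from 1.74 to 4.95, Bcl2l12 from 1.45 to 5.67 and Dhx58os from 0 to 0.949, and Gm45542 was listed at 0. Whether reads were counted by strand is not given in the sources used here, so reads of overlapping stretches cannot be assigned with certainty.

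Summed over genes, a library held 314827 to 335067 FPKM in the drug experiment and 320249 to 335813 in the knockdown experiment, and read totals are unknown. Soat1, the target of the hairpins, was at 19.9 ± 0.254 FPKM (mean ± SD, n = 3) in CT26 with shLucif, and at 3.27 ± 0.0350 with sh1, 3.47 ± 0.0741 with sh2 and 2.59 ± 0.104 with sh3. The libraries labelled Hepa1-6 shLucif stood apart from the other Hepa1-6 libraries. Their summed level of 15 hepatocyte markers was 93.8 to 102.6 FPKM, against 745.5 to 796.5 with the scrambled hairpin and 659.2 to 683.4 with DMSO, and 5 of the 15 markers reached 1 FPKM against 9. Albumin (Alb) was at 1.49 ± 0.249 FPKM in them and at 135 ± 10.7 with the scrambled hairpin, and Soat1 was at 13.0 ± 0.500 against 0.146 ± 0.0435. Results that rest on them are given below for "the libraries labelled shLucif", with the same comparison made without them where one exists. Of 9 intestinal epithelial markers, 1 (Krt20) reached 1 FPKM in CT26 with DMSO and Epcam was listed at 0 there. The same markers summed to 25.7 to 29.6 FPKM in CT26 and to 242 to 251 in Hepa1-6 with DMSO, where 5 of the 9 reached 1 FPKM, so they do not mark the line labelled as colon. Among 11 leukocyte markers, 1 (Cd68) reached 1 FPKM in CT26 with DMSO, and Cd3e and Adgre1 were listed at 0. In bulk RNA, fewer cells that express a gene and less of its RNA per cell cannot be told apart.

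In CT26 the hairpins against Soat1 went with changes of these genes in opposite directions. With sh1 and with sh2, all 9 genes rose against shLucif, led by Irf7 (3.52-fold and 3.93-fold on FPKM + 1), Stat2, Ifih1 and Ddx58. With sh3, which lowered Soat1 as well, 6 genes fell (Irf7, Ifih1, Dhx58, Irf9, Stat2 and Ddx58), Mavs rose, and Tlr3 and Irf3 did not pass the test. The threshold throughout is an adjusted p under 0.05 from limma, fitted over all genes that reached 1 FPKM in 3 or more libraries. The background in these lines was broad: with sh1 37.8% of the 11832 genes tested were called (19.1% higher and 18.7% lower). With sh2 38.9% were called (18.9% higher and 20% lower), and with sh3 52.5% (30.9% higher and 21.6% lower). All 3 comparisons share the same 3 shLucif libraries, so they are set side by side and not counted as independent of each other. How many of all genes had hairpin libraries apart from the shLucif libraries was not counted. A lack of overlap is therefore given below as a description only.

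**Figure D1:**
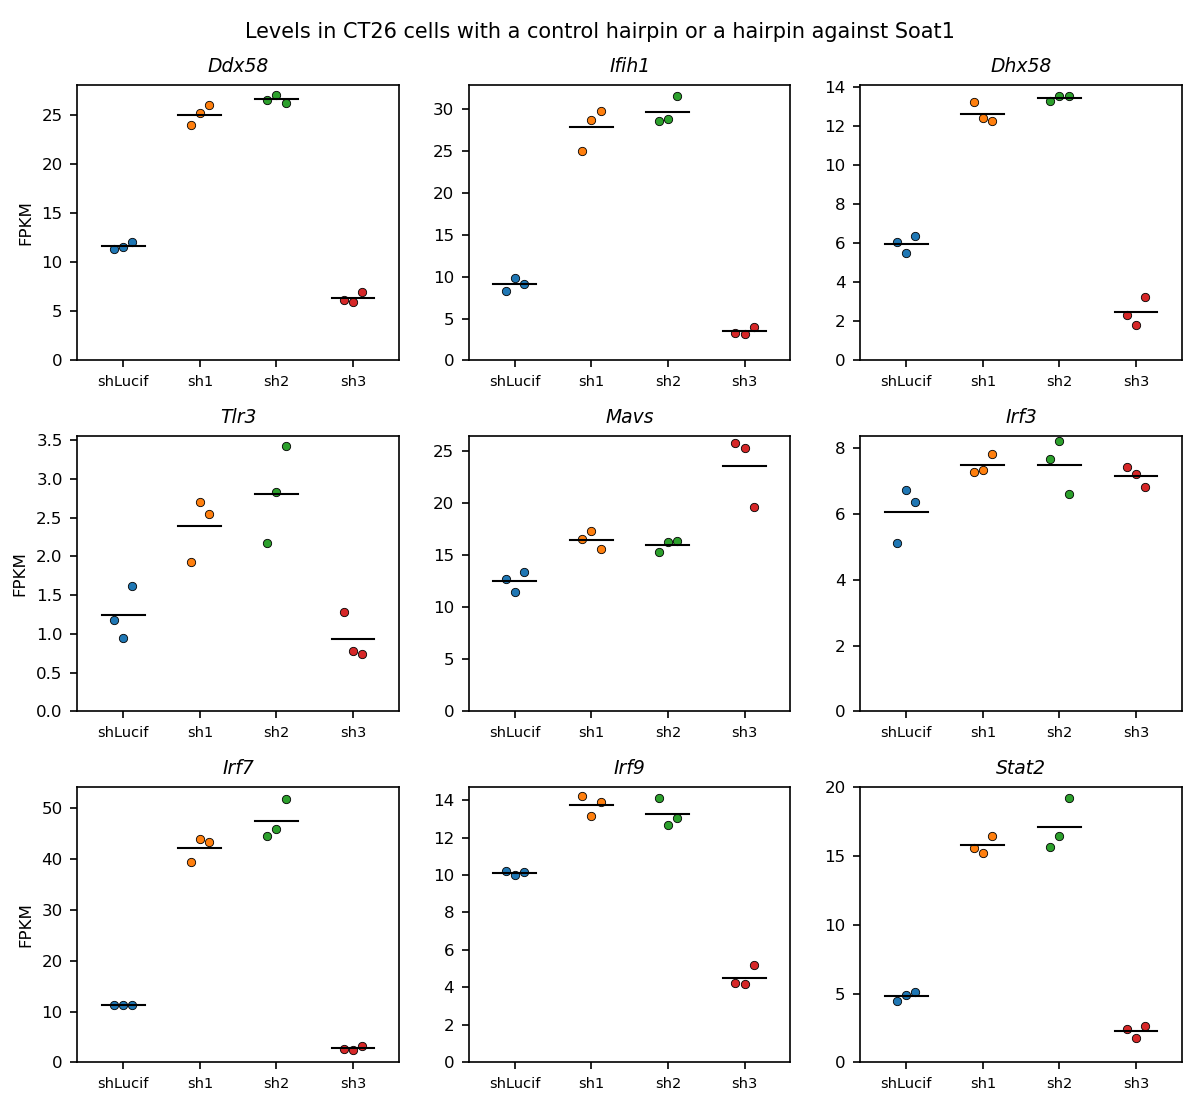
FPKM of each of the 9 genes (vertical axes, linear from 0, own scale per gene) in the CT26 libraries with shLucif, sh1, sh2 or sh3; points are libraries and bars are means of 3. For Ddx58, Ifih1, Dhx58, Irf7, Irf9 and Stat2 every sh1 and sh2 library lies above, and every sh3 library below, the shLucif libraries, whereas Mavs is highest with sh3. The share of all genes that separate in this way was not counted.

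Among the sensors, Ddx58 stood at 11.3, 11.6 and 12.0 FPKM in the 3 shLucif libraries and at 6.12, 5.91 and 6.96 with sh3. It stood at 24.0, 25.2 and 26.0 with sh1 and 26.5, 27.0 and 26.2 with sh2. No library of one of these hairpins overlapped the shLucif libraries, and the sh2 libraries all lay above the sh1 libraries. The log2 fold change of Ddx58 was 1.04 (SE 0.0545, adjusted p = 2.52e-07) with sh1, 1.13 (SE 0.0545, adjusted p = 1.28e-07) with sh2 and -0.79 (SE 0.0545, adjusted p = 8.17e-07) with sh3.

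Ifih1, the sensor of long double-stranded RNA, was at 8.31, 9.86 and 9.08 FPKM with shLucif and at 3.31, 3.14 and 4.02 with sh3. Its values were 25.0, 28.7 and 29.8 with sh1 and 28.6, 28.8 and 31.6 with sh2. The sh1 and sh2 libraries overlapped each other and stood well above the controls. Log2 fold changes were 1.52 (SE 0.0891, adjusted p = 5.37e-07) with sh1, 1.61 (SE 0.0891, adjusted p = 2.83e-07) with sh2 and -1.17 (SE 0.0891, adjusted p = 1.67e-06) with sh3.

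Dhx58 gave 6.06, 5.50 and 6.37 FPKM with shLucif, 13.2, 12.4 and 12.2 with sh1, 13.3, 13.6 and 13.5 with sh2 and 2.34, 1.84 and 3.24 with sh3. The groups did not overlap the controls, and the order from sh3 through shLucif and sh1 to sh2 held for every library. The changes on the log2 scale were 0.97 (SE 0.115, adjusted p = 7.12e-05), 1.05 (SE 0.115, adjusted p = 3.76e-05) and -1.02 (SE 0.115, adjusted p = 2.48e-05) for sh1, sh2 and sh3.

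Tlr3, the endosomal sensor, was the least abundant of the 9 genes in CT26. Its shLucif libraries were at 1.18, 0.951 and 1.62 FPKM, the sh1 libraries at 1.93, 2.70 and 2.55, the sh2 libraries at 2.18, 2.83 and 3.43 and the sh3 libraries at 1.28, 0.781 and 0.738. With sh3 the values overlapped the controls. Tlr3 rose with sh1, by a log2 fold change of 0.60 (SE 0.157, adjusted p = 0.0115), and with sh2, by 0.76 (SE 0.157, adjusted p = 0.00297). With sh3 the log2 fold change was -0.22 (SE 0.157, adjusted p = 0.268), with a 95% interval of -0.56 to 0.13.

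Mavs, the shared adaptor of the cytosolic sensors, departed from them. It was at 12.7, 11.5 and 13.4 FPKM with shLucif, 16.5, 17.3 and 15.6 with sh1, 15.3, 16.3 and 16.4 with sh2 and 25.8, 25.3 and 19.6 with sh3. All hairpin libraries lay above all control libraries, and the sh3 libraries were the highest. The log2 fold change was 0.37 (SE 0.0927, adjusted p = 0.00878) with sh1, 0.33 (SE 0.0927, adjusted p = 0.0161) with sh2 and 0.85 (SE 0.0927, adjusted p = 2e-05) with sh3. The call with sh2 was lost when shLucif replicate 2 was left out (adjusted p = 0.0626, limma).

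**Figure D2:**
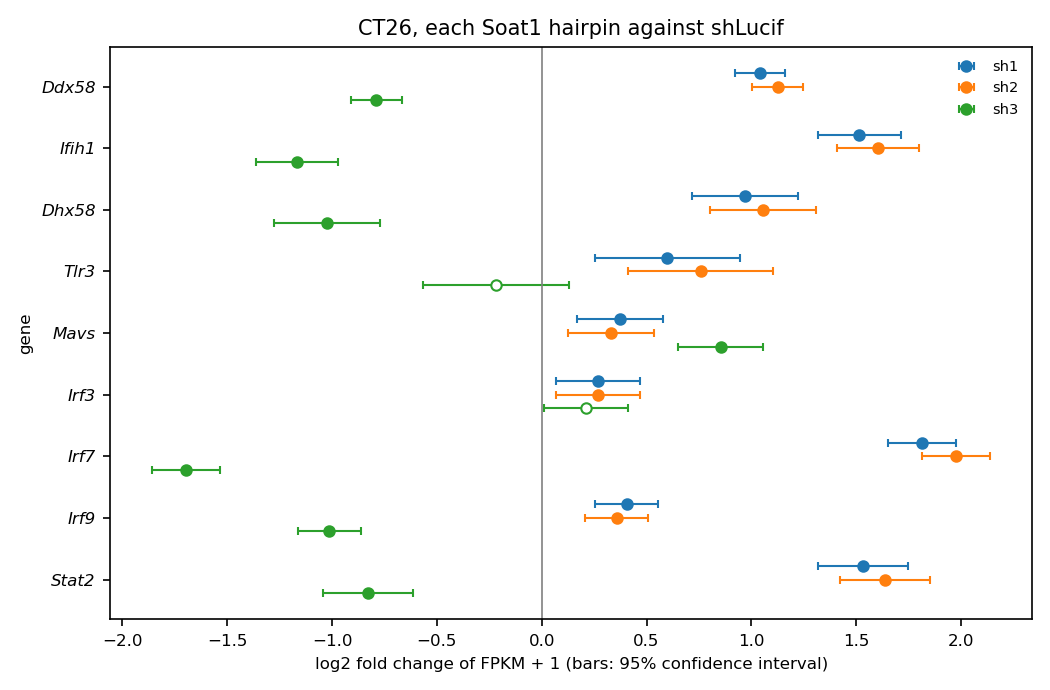
Log2 fold change of FPKM + 1 against shLucif (horizontal axis) with its 95% confidence interval for each of the 9 genes with sh1, sh2 and sh3 in CT26; filled points passed the threshold. Irf7 spans the widest range, from -1.70 with sh3 to 1.98 with sh2, while Mavs and Irf3 are above 0 with each hairpin.

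Irf3, the constitutive factor that acts first after infection, changed least. Its levels were 5.11, 6.73 and 6.37 FPKM with shLucif, 7.26, 7.33 and 7.82 with sh1, 7.65, 8.22 and 6.61 with sh2 and 7.41, 7.21 and 6.82 with sh3. The sh2 libraries overlapped the controls, while the sh1 and sh3 libraries lay just above them. The log2 fold changes of 0.27 (SE 0.0909, adjusted p = 0.0387) with sh1 and 0.27 (SE 0.0909, adjusted p = 0.0377) with sh2 passed the threshold narrowly, and 0.21 (SE 0.0909, adjusted p = 0.0722) with sh3 did not. The first call was lost without any 1 of the 3 sh1 libraries or without shLucif replicate 1 or 3, and the second without sh2 replicate 1 or 2 or shLucif replicate 1. Both were lost with quantile normalization too (adjusted p = 0.0515 and 0.0512, limma).

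Irf7, the inducible factor that amplifies interferon production, moved most. It was at 11.2, 11.4 and 11.3 FPKM with shLucif, 39.4, 43.9 and 43.4 with sh1, 44.6, 45.8 and 51.8 with sh2 and 2.70, 2.51 and 3.19 with sh3. No groups overlapped, and the libraries within each group differed little beside the distances between groups. The log2 fold change was 1.81 (SE 0.0736, adjusted p = 4.15e-08) with sh1, 1.98 (SE 0.0736, adjusted p = 2.78e-08) with sh2 and -1.70 (SE 0.0736, adjusted p = 3.65e-08) with sh3.

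Irf9, the DNA-binding subunit of ISGF3, stood at 10.2, 9.999 and 10.1 FPKM with shLucif, 14.2, 13.1 and 13.9 with sh1, 14.1, 12.7 and 13.1 with sh2 and 4.24, 4.17 and 5.17 with sh3. Its rise was small and its fall larger, with log2 fold changes of 0.41 (SE 0.0679, adjusted p = 0.000802), 0.36 (SE 0.0679, adjusted p = 0.00173) and -1.01 (SE 0.0679, adjusted p = 6.63e-07) for sh1, sh2 and sh3. Stat2, the partner of Irf9 in that complex, had 4.44, 4.87 and 5.08 FPKM with shLucif, 15.6, 15.2 and 16.5 with sh1, 15.7, 16.4 and 19.2 with sh2 and 2.41, 1.81 and 2.63 with sh3. Its rise was the larger change, at 1.53 (SE 0.0972, adjusted p = 8.2e-07) with sh1 and 1.64 (SE 0.0972, adjusted p = 4.54e-07) with sh2, against -0.83 (SE 0.0972, adjusted p = 3.52e-05) with sh3. For both subunits every sh1 and sh2 library exceeded, and every sh3 library fell short of, the shLucif libraries.

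The difference between the hairpins was tested directly by setting the sh3 libraries against sh1 and sh2 averaged, a contrast without the control libraries. Of the 9 genes 7 were lower with sh3, Mavs was higher, and Irf3 did not pass the test (-0.056, SE 0.0787, adjusted p = 0.567). Over all genes 60.2% were called, 24.7% lower and 35.5% higher. The log2 difference was -3.59 (SE 0.0637, adjusted p = 2.82e-11) for Irf7, -2.73 (SE 0.0771, adjusted p = 4.93e-10) for Ifih1, -2.41 (SE 0.0842, adjusted p = 2.31e-09) for Stat2 and -2.04 (SE 0.0993, adjusted p = 2.86e-08) for Dhx58. It was -1.87 (SE 0.0472, adjusted p = 2.3e-10) for Ddx58, -1.40 (SE 0.0588, adjusted p = 9.31e-09) for Irf9, -0.90 (SE 0.136, adjusted p = 0.000166) for Tlr3 and 0.50 (SE 0.0803, adjusted p = 0.000243) for Mavs. Soat1 itself was lower with sh3 than with the other hairpins, at a log2 difference of -0.28 (SE 0.0358, adjusted p = 4.12e-05, limma). Averaged over the 3 hairpins, the contrast with shLucif called 8 of the 9 genes higher and left Irf9 at -0.083 (SE 0.0554, adjusted p = 0.251), with 43.1% of all genes called (23.4% higher and 19.8% lower). In this average Dhx58 lost its call with a pseudocount of 0.1 and Tlr3 with no filter. The averages have the opposite sign to the values of sh3 for 6 of these 8 genes, of which Ddx58, Ifih1, Dhx58, Irf7 and Stat2 fell with sh3 and Tlr3 did not pass the test. Markers of other cell types moved with the hairpins too. Of the 4 fibroblast markers tested 2 rose and 1 fell with sh1 and with sh2, and 4 rose with sh3. The summed level of 8 fibroblast markers was 173.5 to 181.3 FPKM with sh3 against 120.4 to 122.5 with shLucif, 116.1 to 121.3 with sh1 and 107 to 116.4 with sh2. In each of these groups 4 of the 8 reached 1 FPKM and Thy1 was listed at 0. The 9 intestinal markers summed to 42.5 to 46.8 FPKM with sh3 against 21.6 to 22.1 with shLucif, 25.3 to 34.6 with sh1 and 23.8 to 28.7 with sh2, most of it Krt20. Of the 3 intestinal markers tested 3 rose with sh1, 2 with sh2 and 3 with sh3. The shares over all genes against shLucif were 19.1% higher and 18.7% lower with sh1, 18.9% and 20% with sh2, and 30.9% and 21.6% with sh3. So few markers were tested that their counts are a description only. The part of these markers in the result was not tested. The 11 leukocyte markers summed to 5.89 to 8.36 FPKM over the 12 libraries with 1 of them (Cd68) at 1 FPKM, and Adgre1, Cd3e and Siglech were listed at 0 in all 12.

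The rest of the pathway was read from lists chosen by function. Of the interferons, 1 of 21 genes listed (Ifnb1, interferon beta) was tested in the CT26 knockdown lines, and it passed the filter only through the sh1 and sh2 libraries. Ifnb1 was at 0.216, 0.408 and 0.442 FPKM with shLucif, 1.26, 1.36 and 1.32 with sh1, 1.72, 1.34 and 2.19 with sh2 and 0, 0.0129 and 0.249 with sh3. The sh1 and sh2 libraries lay above the controls, and 2 of the sh3 libraries lay below them. The log2 fold change of Ifnb1 was 0.78 (SE 0.123, adjusted p = 0.000557) with sh1, 1.01 (SE 0.123, adjusted p = 8.4e-05) with sh2 and -0.32 (SE 0.123, adjusted p = 0.0471) with sh3. Because the scale is FPKM + 1, these values understate the change of so low a gene. Ifnb1 was listed at 0 in all Hepa1-6 libraries of both tables.

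Of 20 partners in RNA and DNA sensing 19 were tested, of which 7 rose and 3 fell with sh1, 6 rose and 4 fell with sh2, and 4 rose and 8 fell with sh3. Over all genes 19.1% rose and 18.7% fell with sh1, 18.9% and 20% with sh2, and 30.9% and 21.6% with sh3. Trim25, the ubiquitin ligase of RIG-I, changed by 0.79 with sh1, 0.85 with sh2 and -0.53 with sh3 on the log2 scale, and Eif2ak2, the kinase PKR that binds double-stranded RNA, by 0.67, 0.73 and -0.70 (all adjusted p below the threshold, limma). Traf6, a ligase of Toll-like receptor signalling, gave negative values with each hairpin: -0.70, -0.65 and -0.52, and its level was 6.62, 6.91 and 6.41 FPKM with shLucif and between 3.64 and 4.51 in the hairpin libraries. With sh3 Zc3hav1, the antiviral zinc finger protein ZAP, changed by -0.86 and Itch, a ubiquitin ligase that can degrade MAVS, by -0.69, both past the threshold. Tbk1, the kinase of IRF3, gave -0.16 (SE 0.0719, adjusted p = 0.112) with sh1, -0.20 (SE 0.0719, adjusted p = 0.0468) with sh2 and -0.30 (SE 0.0719, adjusted p = 0.00456) with sh3. Ikbke, the related inducible kinase, gave 0.42, 0.42 and 0.45, each past the threshold. The median log2 fold change of the tested partners was 0.085 with sh1, 0.090 with sh2 and -0.054 with sh3, beside -0.0045, -0.011 and 0.040 over all genes tested. Tbk1 and Ikbke were named after their values were seen.

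Of 17 genes of interferon receptors and JAK-STAT signalling 16 were tested, of which 8 rose and 2 fell with sh1, 10 rose and 2 fell with sh2, and 7 rose and 5 fell with sh3. The shares over all genes were 19.1% higher and 18.7% lower with sh1, 18.9% and 20% with sh2, and 30.9% and 21.6% with sh3. Usp18, the interferon-induced protease that dampens receptor signalling, had the widest swing, with 27.4 ± 0.635 FPKM in shLucif, 111 ± 6.06 with sh2 and 3.53 ± 0.864 with sh3 (mean ± SD, n = 3). Ifnar1, a chain of the type I interferon receptor, did not follow this order: against 3.11 ± 0.445 FPKM in the shLucif libraries it stood at 7.50 ± 1.20 with sh1, 6.84 ± 0.528 with sh2 and 7.33 ± 1.07 with sh3. The log2 fold changes of Ifnar1 were 1.04, 0.94 and 1.02, each past the threshold.

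Of 34 antiviral effector genes, many of them known targets of ISGF3, 31 rose and 2 fell with sh1, 31 rose and 1 fell with sh2, and 0 rose and 31 fell with sh3. Mx1 and Epsti1 were below 1 FPKM on average with shLucif, and Mx2, Cmpk2 and Uba7 with sh3. Of those at 1 FPKM or more in both groups compared, 30 of 32 rose with sh1 and with sh2, and 27 of 29 fell with sh3. The medians were 1.20, 1.29 and -1.02 on the log2 scale. Ifit1 changed by 1.74 with sh1, 1.95 with sh2 and -2.15 with sh3, and Isg15 by 1.77, 1.84 and -1.91. The exception among abundant effectors was Ifi27, a mitochondrial interferon-induced protein, which fell with every hairpin, with log2 fold changes of -1.46, -1.51 and -0.52. Epsti1 was the other effector called lower with sh1 (-0.36). Both were singled out after their values were seen. A list of 6 other factors of the IRF family and 3 IRF2-binding proteins had 3 of each kind tested. Of the 3 factors 1 rose and 1 fell with sh1 and with sh2, and 0 were called with sh3. Of the 3 binding proteins 1 rose with sh1 (Irf2bpl), 0 were called with sh2, and 2 rose (Irf2bp1 and Irf2bp2) and 1 fell (Irf2bpl) with sh3. Irf5, which reached 1 FPKM on average with sh2 alone, was 0.73 with sh1 and 0.97 with sh2, and Irf2, a repressor of interferon genes, was -0.36 and -0.37 (log2 fold changes, past the threshold). Of 14 genes of the other Toll-like receptors and their adaptors 4 were tested. The adaptor Myd88 changed by 0.75, 0.68 and -0.23 and the adaptor Tirap by 0.49, 0.55 and 0.46 with sh1, sh2 and sh3, all past the threshold.

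**Figure D3:**
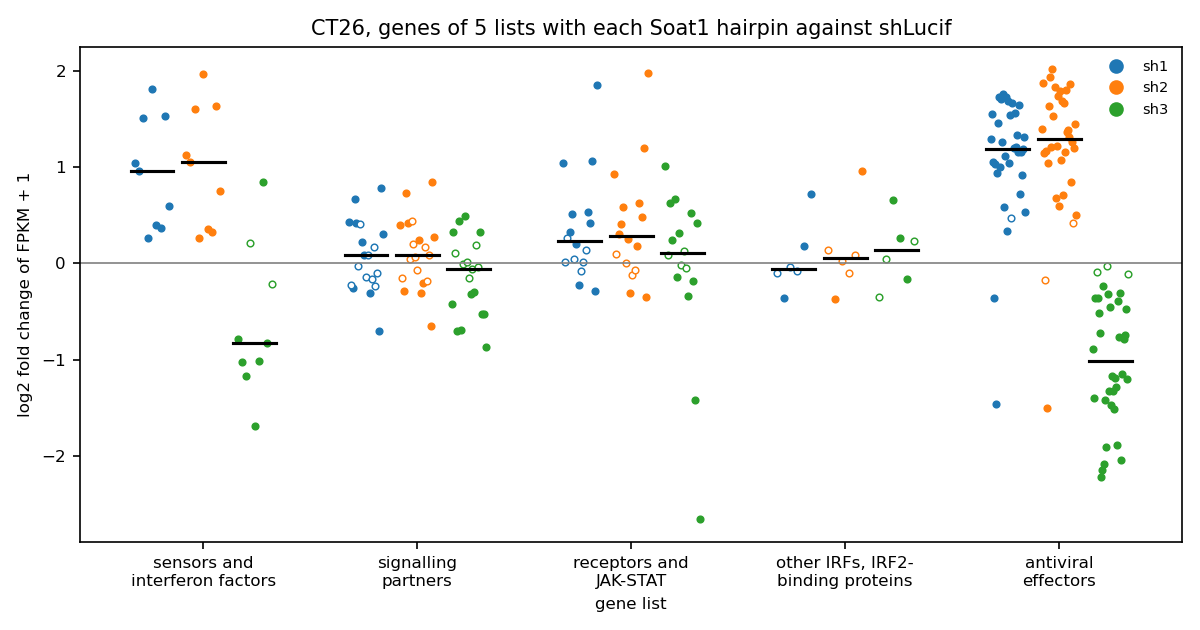
Log2 fold change of FPKM + 1 against shLucif (vertical axis) with sh1, sh2 and sh3 in CT26 for the tested genes of 5 lists; each point is a gene, filled where it passed the threshold, and bars are medians. The sensors and factors and the antiviral effectors have medians near or above 1 with sh1 and sh2 (0.97 and 1.05, 1.20 and 1.29) and below 0 with sh3 (-0.83 and -1.02), while the medians of the other 3 lists lie between -0.056 and 0.28.

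Over the 12 CT26 knockdown libraries Ddx58, Ifih1, Dhx58, Irf7 and Stat2 formed a tight set. Irf9 and Tlr3 were more loosely tied to it, and Mavs and Irf3 lay outside. Pearson's r of log2(FPKM + 1) was 0.998 between Ddx58 and Ifih1, 0.997 between Ddx58 and Irf7 and 0.99 between Irf7 and Stat2. Irf9 was at 0.956 with Irf7, and within the set ran from 0.914 with Stat2 to 0.966 with Dhx58. Tlr3 was at 0.898 with Irf7, and ran from 0.771 with Irf9 to 0.923 with Stat2. Mavs was at -0.493 with Irf7 and -0.706 with Irf9, and Irf3 at 0.286 with Irf7. These 12 libraries share 4 group means, so the coefficients mostly repeat the differences between hairpins and are given as a description. Among 11831 other genes, the closest to Ddx58 were Gbp3 (0.999) and Tor3a (0.999), to Ifih1 Ifi203 (0.999), to Dhx58 Apol9a (0.995) and to Tlr3 Stam2 (0.965). Mavs was closest to Ehmt2 (0.981), Agap3 (0.98) and Myo1c (0.978), and Irf3 to Erlin2, at a lower 0.89. Irf7 was closest to Oas1a and Oas1g (0.999), Irf9 to Ndrg1 (0.997), Pdpn (0.993) and Pvr (0.992), and Stat2 to Parp14 (0.998), Sp100 and Rnf213 (both 0.997).

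Most of these genes were higher in CT26 than in Hepa1-6. With DMSO, 8 of the 9 genes were higher in CT26 and Irf3 did not pass the test, where 76.8% of the 12822 genes tested were called (38.5% higher and 38.4% lower). For all 9 genes every CT26 library lay above every Hepa1-6 library, as for 39.9% of all genes tested (a further 39.8% lay wholly below). Dhx58, Tlr3 and Irf7 were below 1 FPKM in Hepa1-6 and passed the filter through CT26 alone, and of the 6 genes at 1 FPKM or more in both lines 5 were higher in CT26.

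Irf7 showed the widest gap, with 7.67, 5.64 and 9.19 FPKM in CT26 and 0.271, 0.214 and 0.138 in Hepa1-6, a log2 fold change of 2.79 (SE 0.195, adjusted p = 1.31e-07). Irf9 was at 6.43, 5.06 and 7.55 FPKM against 0.942, 0.849 and 1.45, and Stat2 at 4.25, 4.09 and 5.56 against 1.06, 0.864 and 1.09. These gave log2 fold changes of 1.82 (SE 0.169, adjusted p = 1.64e-06) and 1.48 (SE 0.200, adjusted p = 3.92e-05), both higher in CT26. Among the sensors, Dhx58 was at 3.92, 2.88 and 3.98 FPKM against 0.373, 0.339 and 0.424, Ifih1 at 6.14, 3.77 and 5.95 against 1.18, 1.30 and 1.42, and Ddx58 at 11.8, 9.17 and 12.8 against 4.54, 5.10 and 4.90. Their log2 fold changes were 1.73 (SE 0.176, adjusted p = 3.77e-06), 1.43 (SE 0.167, adjusted p = 1.21e-05) and 1.06 (SE 0.156, adjusted p = 7.99e-05). Tlr3 was low in both lines, at 1.61, 1.24 and 1.63 FPKM in CT26 and 0.728, 0.568 and 0.558 in Hepa1-6 (log2 fold change 0.62, SE 0.110, adjusted p = 0.000329).

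Of Mavs and Irf3, usually expressed constitutively, Mavs differed between the lines by more than Tlr3 (0.62) on the log2 scale. Irf3 did not pass the test. Mavs was the most abundant of the 9 genes in both, at 30.9, 29.5 and 31.2 FPKM in CT26 and 17.3, 17.5 and 17.9 in Hepa1-6, with a log2 fold change of 0.76 (SE 0.0350, adjusted p = 3.19e-09). Irf3 was at 6.68, 7.03 and 8.44 FPKM and 6.37, 6.19 and 6.51, with a log2 fold change of 0.18 (SE 0.10, adjusted p = 0.118) and a 95% interval of -0.039 to 0.40.

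In the knockdown table the same contrast of lines could be made against 2 sets of Hepa1-6 libraries. CT26 with shLucif against Hepa1-6 with the scrambled hairpin called 7 genes higher and Mavs lower, beside 79.9% of 13129 genes (40.8% higher, 39.1% lower). In this contrast the log2 fold change was 3.15 (SE 0.0698, adjusted p = 9.42e-16) for Irf7, 2.41 (SE 0.114, adjusted p = 1.5e-11) for Dhx58, 2.35 (SE 0.0820, adjusted p = 3.12e-13) for Ifih1 and 2.10 (SE 0.0671, adjusted p = 9.74e-14) for Irf9. It was 1.28 (SE 0.0972, adjusted p = 6.01e-09) for Stat2, 1.15 (SE 0.0506, adjusted p = 5.73e-12) for Ddx58, 0.52 (SE 0.170, adjusted p = 0.0113) for Tlr3 and -0.19 (SE 0.0847, adjusted p = 0.0545) for Irf3. Ifih1, Dhx58, Tlr3 and Irf7 were below 1 FPKM on average with the scrambled hairpin, so that 3 of the 5 genes above it in both groups were called higher. The call of Tlr3 was lost without shLucif replicate 3 of CT26 or without scramble replicate 3.

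Mavs changed sides between the tables. It was -0.64 (SE 0.0839, adjusted p = 3.57e-06) in CT26 with shLucif against Hepa1-6 with the scrambled hairpin, while it was 0.76 with DMSO. In Hepa1-6 its level was 19.9, 21.1 and 19.3 FPKM with the scrambled hairpin, near the 17.6 ± 0.280 of the drug table, whereas CT26 held 12.5 ± 0.951 with shLucif and 30.5 ± 0.942 with DMSO (mean ± SD, n = 3). The tables come from different experiments and were scaled separately, so these levels are set side by side only.

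**Figure D4:**
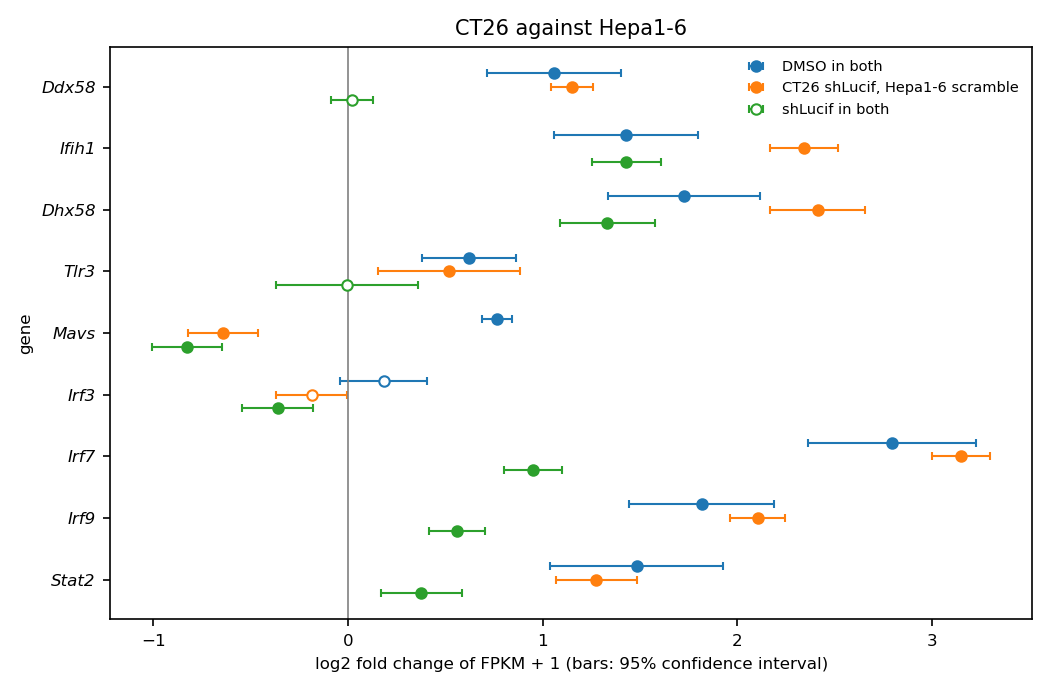
Log2 fold change of FPKM + 1 of CT26 against Hepa1-6 (horizontal axis) with its 95% confidence interval for the 9 genes, with DMSO in both lines, with CT26 shLucif against Hepa1-6 scramble, and with libraries labelled shLucif in both lines; filled points passed the threshold. Irf7, Irf9, Dhx58, Ifih1 and Stat2 are called higher in CT26 in all 3 contrasts. Mavs is higher with DMSO (0.76) and lower in the knockdown table (-0.64 and -0.83).

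Against the libraries labelled Hepa1-6 shLucif, 5 genes were higher in CT26 with shLucif and Mavs and Irf3 were lower, beside 72.4% of all genes (33% higher, 39.4% lower). Ddx58, at 11.1, 11.2 and 12.1 FPKM in them, gave a log2 fold change of 0.022 (SE 0.0506, adjusted p = 0.708) with a 95% interval of -0.086 to 0.13. Ifih1 gave 1.43 (SE 0.0820, adjusted p = 3.43e-10) and Dhx58 1.33 (SE 0.114, adjusted p = 4.4e-08), the largest differences here. Irf7 gave 0.95 (SE 0.0698, adjusted p = 6.96e-09), Irf9 0.56 (SE 0.0671, adjusted p = 2.05e-06) and Stat2 0.38 (SE 0.0972, adjusted p = 0.00276), and all 5 values were smaller than in the contrast with the scrambled hairpin above.

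The 2 Hepa1-6 controls of the knockdown table differed from each other in these genes. With the scrambled hairpin all 8 genes tested were lower than in the libraries labelled shLucif (Tlr3 was below the filter), and for all 9 genes its libraries lay below without overlap, as for 39.5% of all genes tested. Over all 12055 genes 68.2% were called, 36.8% lower. Irf7 was at 0.440, 0.343 and 0.367 FPKM against 5.09, 5.26 and 5.73 in the libraries labelled shLucif, a log2 fold change of -2.20 (SE 0.0644, adjusted p = 3.17e-07). Irf9 was at 1.43, 1.77 and 1.58 against 6.44, 6.37 and 6.85 (-1.55, SE 0.0676, adjusted p = 2.05e-06), and Ddx58 at 4.69, 4.75 and 4.63 against 11.1, 11.2 and 12.1 (-1.13, SE 0.0505, adjusted p = 2.29e-06). Dhx58, Ifih1 and Irf7 were below 1 FPKM on average with the scrambled hairpin and passed the filter through the other group. Mavs (-0.18, SE 0.0514, adjusted p = 0.0171) and Irf3 (-0.18, SE 0.0638, adjusted p = 0.0443) differed least, and between 4 and 7 genes were called when 1 library was left out. Without any 1 of the libraries labelled shLucif only 6 of the genes were tested. The hepatocyte markers of these libraries, given above, moved with this result, and their part in it was not tested.

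Treatment with stk for 48 hours gave no call among these genes in CT26. By limma 0 of the 9 genes were called (0 of 9 also at an unadjusted p under 0.05), beside 0.748% of 11358 genes called and 1656 genes at an unadjusted p under 0.05. The libraries with stk and with DMSO overlapped for all 9 genes and for 78.6% of all genes tested. Irf7 was at 7.67, 5.64 and 9.19 FPKM with DMSO and 9.86, 5.44 and 8.95 with stk, and its log2 fold change of 0.083 had a 95% interval of -0.48 to 0.64. The intervals were -0.57 to 0.61 for Stat2, -0.63 to 0.42 for Dhx58 and -0.51 to 0.37 for Irf9, and -0.50 to 0.48 for Ifih1 and -0.44 to 0.47 for Ddx58. For Mavs, at 30.9, 29.5 and 31.2 FPKM with DMSO and 30.1, 30.7 and 31.2 with stk, the interval was -0.085 to 0.10. Irf3 had the lowest p, with 6.68, 7.03 and 8.44 FPKM with DMSO and 5.11, 7.14 and 6.05 with stk and a log2 fold change of -0.24 (SE 0.124, adjusted p = 0.440). Tlr3 gave 0.067 (SE 0.130, adjusted p = 0.862). A change of the size seen with the hairpins for Irf7, Ifih1 or Stat2 lies outside these intervals.

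**Figure D5:**
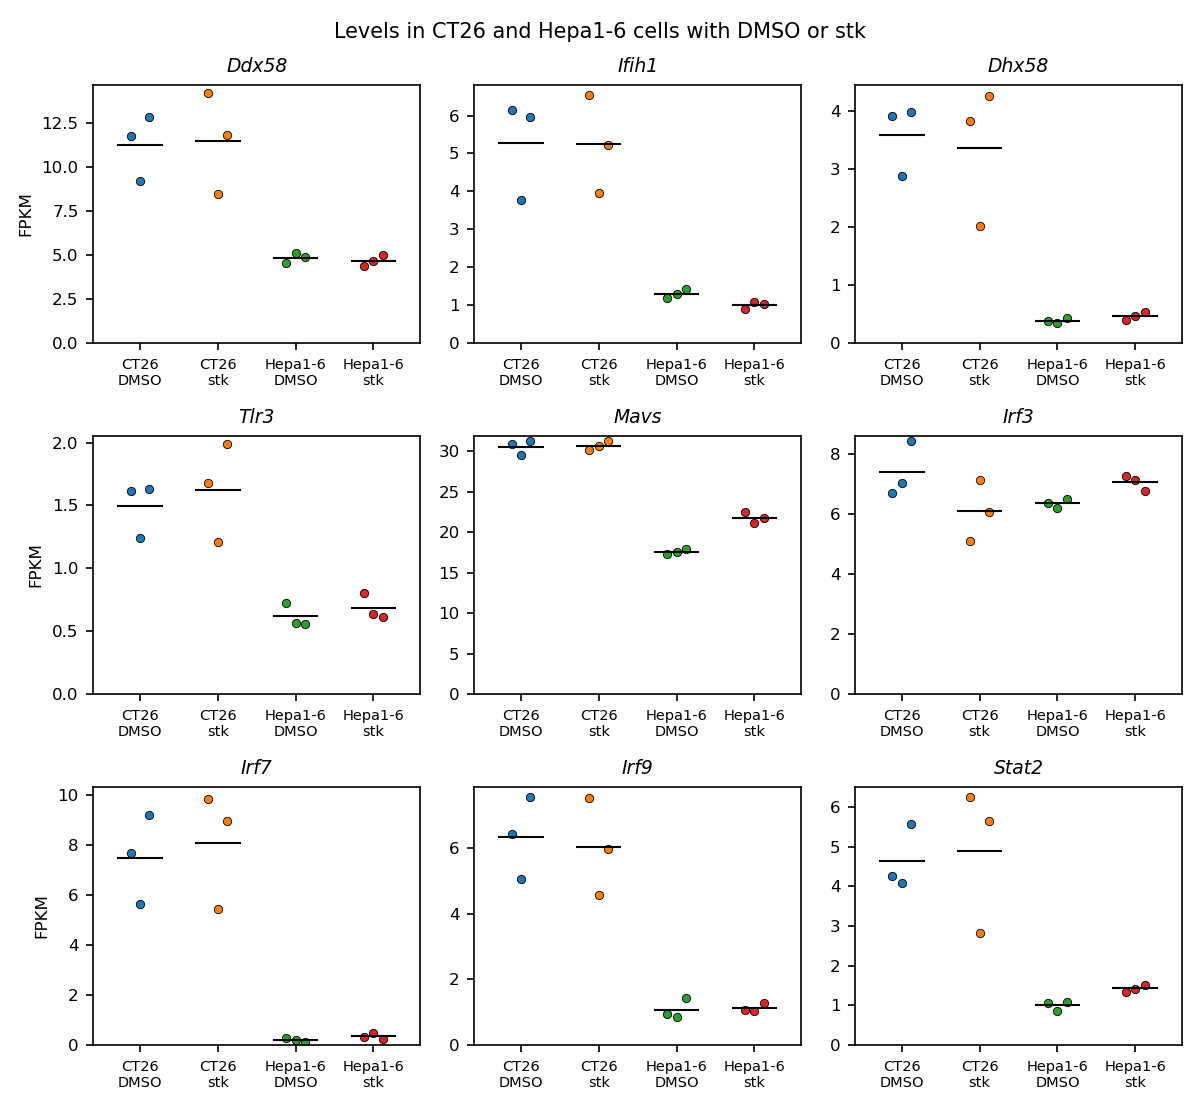
FPKM of each of the 9 genes (vertical axes, linear from 0, own scale per gene) in CT26 and Hepa1-6 with DMSO or stk; points are libraries and bars are means of 3. The DMSO and stk libraries of CT26 overlap for all 9 genes, and Mavs in Hepa1-6 is higher with stk (21.2 to 22.4) than with DMSO (17.3 to 17.9).

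In CT26 the libraries numbered 2 were the lowest of their group with DMSO and with stk in 7 of the 9 genes, against 1484 of 11358 genes tested (13.07%). The same held for 27 of 32 antiviral effectors. The part of this pair in the result was not tested beyond leaving both out: in that fit, a setting chosen after the data were seen, 0 of the 9 genes were called.

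In Hepa1-6, 6 of the 9 genes could be tested for the response to stk (Dhx58, Tlr3 and Irf7 were below the filter), and Mavs was called higher. The background was 1.53% of 11426 genes called (0.683% higher). Mavs was at 17.3, 17.5 and 17.9 FPKM with DMSO and 22.4, 21.2 and 21.8 with stk, a log2 fold change of 0.30 (SE 0.0398, adjusted p = 0.0420). Its libraries did not overlap, which held for 30.8% of all genes tested (16.2% with stk above). The call was lost in each of the 6 fits that left out 1 library, and with no filter on low values (adjusted p = 0.0857, limma). Of the 6 genes 4 had an unadjusted p under 0.05, beside 23.8% of all genes, and these 4 also take in Stat2 (0.28, SE 0.0809, adjusted p = 0.112), Irf3 (0.13, SE 0.0502, adjusted p = 0.186) and Ifih1 (-0.20, SE 0.0803, adjusted p = 0.199). Stat2 went from 1.06, 0.864 and 1.09 FPKM with DMSO to 1.34, 1.42 and 1.52 with stk, and Ifih1 from 1.18, 1.30 and 1.42 to 0.904, 1.07 and 1.04. Ddx58 gave -0.042 (SE 0.0684, adjusted p = 0.753) and Irf9 0.046 (SE 0.124, adjusted p = 0.860). The 3 untested genes stayed low: Irf7 was at most 0.493 FPKM, Dhx58 at most 0.533 and Tlr3 at most 0.806 in the Hepa1-6 libraries of the drug table.

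The response to stk differed between the lines for 1 of the 9 genes in a test of the difference itself, beside 0.304% of 12822 genes (0.109% higher and 0.195% lower). For Mavs the response in CT26 minus that in Hepa1-6 was -0.29 (SE 0.0495, adjusted p = 0.0456). The difference for Irf3 was -0.37 (SE 0.142, adjusted p = 0.291), and the other 7 genes had differences between -0.25 (Stat2) and 0.19 (Ifih1), none past the threshold. The call for Mavs was lost in each of the 12 fits that left out 1 library, with quantile normalization (adjusted p = 0.0518, limma) and without both CT26 libraries numbered 2 (0.117).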

How the data were processed

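RNA sequencing of CT26 and Hepa1-6 cells was deposited by the authors as FPKM, 1 table per experiment with 55335 genes. Per the labels' protocols, total RNA was extracted with TRIzol, a SMARTer kit was used for certain samples, and Skewer trimmed the paired reads. The submitters' processing notes name the build GRCm38 and the tools edgeR, DESeq2, STAR and HISAT2. The tool behind the FPKM is not given in the sources used here, nor is the gene model for length. No read totals can be had from FPKM, so depth per library is unknown and no counting interval was computed.

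Beside 45 labelled samples, 30 columns could be matched by name (12 for the drug, 18 for the knockdown). Those of sh1 were matched to their group only, and the others to single samples. A further 21 columns were not used. Table names are swapped between the experiments, so columns were assigned by their own names. Only 3 of the 6 stk samples of each line were so matched. In CT26 1 of these is titled TK1, and its treatment label names stk. Columns of sh1 were used as a group without replicate numbers. The labels give 1 batch date per experiment.

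From the values as deposited, log2(FPKM + 1) was tested with limma 3.58.1 in R 4.3.3 (mean-variance trend, two-sided), which shrinks fold changes of low genes. A separate model was fitted per line and experiment. The contrasts between lines and the difference in response used all groups of a table. Genes reaching 1 FPKM in 3 or more libraries of a model were tested, and Benjamini-Hochberg adjusted p-values under 0.05 over all of them were called. With 3 libraries against 3 an exact permutation test cannot go below 0.1 and was not used. The tests were checked on simulated data. No pair of replicates was identical. Alternatives were another pseudocount, other filters, quantile normalization, a replicate block, 1 model per table and each library left out.

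The genes named beside the 9 are the 3 with the largest absolute fold change called in each list and comparison, drawn on as the text needs, and the 3 with the highest Pearson r. Some genes this rule names are not reported here. The 9 genes, the 12 gene lists and the motif were chosen with earlier results of these data known.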

Additional observations from a re-analysis of the deposited data

Results flagged for a closer look

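The response of Mavs, the adaptor of RIG-I and MDA5, to stk differed between the lines when the difference itself was tested: CT26 minus Hepa1-6 was -0.29 on the log2 scale (SE 0.0495, adjusted p = 0.0456, limma). In CT26 Mavs was at 30.9, 29.5 and 31.2 FPKM with DMSO and at 30.1, 30.7 and 31.2 with stk, and these libraries overlapped. In Hepa1-6 it was at 17.3, 17.5 and 17.9 FPKM with DMSO and at 22.4, 21.2 and 21.8 with stk. These libraries did not overlap, which held for 30.8% of all genes tested in that line (16.2% with stk above). Over all genes 0.304% were called in this test. The call was lost in each of the 12 fits that left out 1 library, where the value ran from -0.31 to -0.27, and with quantile normalization (adjusted p = 0.0518), with the replicate block (0.224) and without both CT26 libraries numbered 2 (0.117).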

How the results depend on the processing

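The number of these genes called was within 1.5 times the reported count under each alternative except as follows. For stk in Hepa1-6 it fell from 1 to 0 with no filter and with the replicate block, and was 0 in each fit that left out 1 library. For the contrast of the responses to stk of both lines it fell from 1 to 0 with quantile normalization (Mavs at an adjusted p = 0.0518), with the replicate block (0.224), with both CT26 libraries numbered 2 left out (0.117, chosen after seeing the data), and in each fit without 1 library (0 in all). For Hepa1-6 scramble against shLucif it was 5 with a minimum of 5 FPKM, where 5 genes were tested, and 4 to 7 in the fits without 1 library. The fits without 1 library gave 8 to 9 genes for sh1 and for sh2, 7 to 8 for sh3, 6 to 9 for the mean of the hairpins, 8 for sh3 against sh1 and sh2, 8 between the lines with DMSO, 7 against the libraries labelled shLucif and 7 to 9 against scramble.

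In CT26 Irf3 lost its call with sh1 and sh2 with no filter (adjusted p = 0.0932 and 0.0919) and with quantile normalization (0.0515 and 0.0512). For the mean of the hairpins Dhx58 lost its call with a pseudocount of 0.1 (0.057) and Tlr3 with no filter (0.094). Between Hepa1-6 controls Irf3 lost it under 4 alternatives (0.0649 to 0.0827) and Mavs with 1 model per table (0.0669). The fits are limma throughout, and the causes were not tested.

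Same-numbered libraries correlated by -0.0497 to 0.105 over genes, and not every library was closest to its own number, so the numbers were not taken to pair libraries. With the replicate block Mavs (0.0516) and Irf3 (0.0637) were not called with sh2, nor Mavs with stk in Hepa1-6 (0.128). No block was possible for contrasts with sh1 or between the lines.

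Directions changed among uncalled values only. With quantile normalization Ifih1 with stk in CT26 was 0.0033 and Tlr3 between lines in the libraries labelled shLucif was 0.13. With a pseudocount of 0.1 the difference in response of Tlr3 was -0.031, and without the libraries numbered 2 Dhx58 was 0.025 and Mavs -0.019 with stk in CT26. In fits without 1 library, the values with stk in CT26 ran from -0.14 to 0.20 for Ddx58, -0.20 to 0.15 for Ifih1, -0.26 to 0.14 for Dhx58, -0.031 to 0.19 for Tlr3, -0.019 to 0.022 for Mavs, -0.085 to 0.31 for Irf7, -0.22 to 0.088 for Irf9 and -0.15 to 0.31 for Stat2. Irf9 in Hepa1-6 ran from -0.034 to 0.17. The difference between lines ran from -0.099 to 0.24 for Ddx58, -0.35 to 0.051 for Dhx58, -0.090 to 0.13 for Tlr3, -0.24 to 0.16 for Irf7, -0.26 to 0.042 for Irf9 and -0.43 to 0.033 for Stat2. Against the libraries labelled shLucif, Ddx58 ran from -6.5e-05 to 0.058 and Tlr3 from -0.13 to 0.094.

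Over all genes, the 85 calls for stk in CT26 became 14 with no filter, 133 with a minimum of 5 FPKM, 204 with 1 model per table and 4 with the replicate block, and the share of higher calls went from 17.6% to 30.2% with quantile normalization. The 175 calls in Hepa1-6 became 4, 473, 928 and 4, and the 39 for the difference between lines became 6 with the block. Unknown depth limits what can be said of genes near or below 1 FPKM, here Tlr3 and, in Hepa1-6, Ifih1, Dhx58, Irf7, Irf9 and Stat2.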

Other observations

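Other factors of the IRF family and the IRF2-binding proteins were lower in CT26 than in Hepa1-6. With DMSO 5 factors and 3 binding proteins of this list of 9 were tested and all 8 were lower by limma, beside 38.4% of all genes, with a median log2 fold change of -0.57 beside -0.0068 over all 12822 genes. Irf8 was -1.54 and Irf5 -1.06, each below 1 FPKM in CT26, and the 5 genes at 1 FPKM or more in both lines (Irf1, Irf2, Irf2bp1, Irf2bp2 and Irf2bpl) were also lower. With CT26 shLucif against Hepa1-6 scramble 4 of the 5 factors and 2 of the 3 binding proteins were lower and 0 higher, beside 39.1% of all genes lower. In the same comparison with DMSO 32 of 32 antiviral effectors tested were higher in CT26, 14 of them at 1 FPKM or more in both lines, and Isg15 was 4.90 on the log2 scale. The DNA sensor Mb21d1 was at 6.96 ± 1.68 FPKM in CT26 (mean ± SD, n = 3) and was listed at 0 in the Hepa1-6 libraries with DMSO, and Adar, the editor of double-stranded RNA, was 1.92 on the log2 scale. Among receptors and JAK-STAT genes 5 of 17 were higher and 11 lower, with the interferon gamma receptor chain Ifngr1 at -1.69. Over all genes 38.5% were higher and 38.4% lower with DMSO.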
